A study of Homo sapiens with 24 samples.

Results

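The 6 long noncoding RNAs NEAT1, MALAT1, KCNQ1OT1, NORAD, TUG1 and OIP5-AS1 were followed in newly made RNA of U2OS cells, a human osteosarcoma line. They were chosen by name as widely studied long noncoding RNAs, by a rule that uses no measured value. Earlier results of these data were known when they were chosen. They were 6 of the 61533 genes in the exon count table. All 6 passed the filter on low counts, which kept 23651 genes, 5287 of them annotated as long noncoding RNA. The cells were 3 stable pools that carried the glucocorticoid receptor (GR, encoded by NR3C1) with a C-terminal HaloTag, a tag that binds dyes, delivered in a PiggyBac vector with a CMV promoter. The wt pool carried the unchanged receptor, the SoF pool the K492A receptor and the Ctrl pool the R470A receptor. Binding was known from a fragment of the receptor in vitro. There K492A bound RNA much less and DNA somewhat less, while R470A had lowered DNA binding and kept RNA binding. Loss of RNA binding in cells was not specifically tested in the paper. Pools were selected with puromycin and sorted to a matched nuclear receptor signal, and each line was 1 pool, so receptor variant and pool cannot be told apart. Every group had medium with charcoal-stripped serum, and then had the synthetic glucocorticoid dexamethasone at 100 nM for 1, 2 or 3 h, or ethanol at 0.01% (called 0 h). RNA was labelled with 200 µM 4-thiouridine (4sU) during the last hour (1 h in the ethanol dishes as well), so that a level here is a level of recently transcribed RNA. There were 12 groups of line and time with 2 libraries each, 24 in all.

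Long noncoding RNAs are long transcripts that act without being translated. NEAT1 is the scaffold of paraspeckles, nuclear bodies that hold RNA and RNA-binding proteins, and is made as a short and a long form with a common start. MALAT1 lies next to NEAT1 on chromosome 11 and gathers in nuclear speckles, the bodies that store splicing factors, and the ends of MALAT1 and of the long NEAT1 are cut by RNase P and not by the polyadenylation machinery. KCNQ1OT1 is transcribed from 1 parental copy and silences imprinted genes around it. NORAD binds PUM2, a Pumilio protein that otherwise represses messenger RNAs with the same short element. TUG1 is a conserved RNA found in nucleus and cytoplasm, and OIP5-AS1 (known as Cyrano in other vertebrates) carries a highly conserved site for a microRNA. NORAD and OIP5-AS1 are known mainly from the cytoplasm, and location in the cell was not measured here.

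All positions are on hg38. NEAT1 (ENSG00000245532.10) spans chr11:65422774-65445540 on the plus strand, with 22767 bases of exon. MALAT1 (ENSG00000251562.9) spans chr11:65497640-65508073 on the plus strand, with 10434 bases of exon. KCNQ1OT1 (ENSG00000269821.1) spans chr11:2597308-2700003 on the minus strand and lies opposite KCNQ1, with 92625 bases of exon. NORAD (ENSG00000260032.2) is a single exon of 5401 bases at chr20:36045618-36051018, minus strand. TUG1 (ENSG00000253352.10) spans chr22:30969245-30979395 on the plus strand, with 10151 bases of exon, and GENCODE release 44 types it as protein_coding. OIP5-AS1 (ENSG00000247556.6) spans chr15:41283958-41322392 on the plus strand, with 22370 bases of exon.

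RefSeq promoter sequences (250 bases before to 50 after a start, GRCh38.p14) were at hand for 4 of the 6 RNAs, 5 promoters in all because MALAT1 had 2. Promoters of NEAT1 and KCNQ1OT1 were not used here. A full glucocorticoid response element, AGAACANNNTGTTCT, was in none of the 5, and in 0.00285% of 35116 promoters on both strands. The shorter AGAACA, which is one side of that element, was in 1 of the 5, MALAT1 promoter 2, and in 14.8% of all promoters. The same MALAT1 promoter held TATAAA (11.5% of all), and the cyclic AMP element TGACGTCA (1.85% of all) was in none of the 5. The E-box CACGTG was found once each in NORAD, TUG1 and OIP5-AS1, against 7.26% of all promoters. MALAT1 and TUG1 are shown because MALAT1 starts from promoters of unlike base composition (73.7% and 46% G or C) and TUG1 shares its start region with MORC2 on the other strand, 0.471 kb away. A match of letters is a description and not a site of binding. In MALAT1 promoter 1 (chr11:65497488-65497787, plus strand) capitals mark the 5 GC boxes, GGGCGG on either strand, which 45% of all promoters hold. In MALAT1 promoter 2 (chr11:65498795-65499094, plus strand) they mark the AGAACA match, here on the minus strand. In the TUG1 promoter (chr22:30969015-30969314, plus strand) they mark 2 CCAAT boxes, which 34.6% of all promoters hold, and the E-box, while its 4 GC boxes are left in lower case.
MALAT1 promoter 1: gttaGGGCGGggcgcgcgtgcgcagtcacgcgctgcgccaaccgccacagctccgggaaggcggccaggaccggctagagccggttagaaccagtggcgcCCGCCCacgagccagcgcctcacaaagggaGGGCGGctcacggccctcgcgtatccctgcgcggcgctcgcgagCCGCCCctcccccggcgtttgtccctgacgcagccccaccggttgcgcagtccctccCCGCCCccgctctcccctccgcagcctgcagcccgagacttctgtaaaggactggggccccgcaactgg
MALAT1 promoter 2: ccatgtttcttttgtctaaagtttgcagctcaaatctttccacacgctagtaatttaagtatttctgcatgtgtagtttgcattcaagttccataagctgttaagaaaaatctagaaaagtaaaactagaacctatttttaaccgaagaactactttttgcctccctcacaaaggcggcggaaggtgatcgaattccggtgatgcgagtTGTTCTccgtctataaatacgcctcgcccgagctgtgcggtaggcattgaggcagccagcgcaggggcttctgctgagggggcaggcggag
TUG1 promoter: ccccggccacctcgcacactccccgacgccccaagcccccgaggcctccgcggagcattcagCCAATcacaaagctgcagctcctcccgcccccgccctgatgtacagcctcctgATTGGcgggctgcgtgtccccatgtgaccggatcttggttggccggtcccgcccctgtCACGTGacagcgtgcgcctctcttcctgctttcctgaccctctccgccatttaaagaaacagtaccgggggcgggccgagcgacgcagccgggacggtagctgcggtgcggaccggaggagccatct

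The feature that sets NORAD apart in sequence is its Pumilio element, TGTANATA in DNA letters. The longest NORAD transcript held 15 on its own strand, 2.78 per kb. NEAT1 held 6, KCNQ1OT1 9, TUG1 2, OIP5-AS1 1 and MALAT1 0, at most 0.268 per kb in any of them. Over the other long noncoding RNA genes of at least 2000 bases the rate was 0.12 per kb, and 5 of 4158 reached the rate of NORAD. Of the 15 elements 10 read TGTATATA, 4 TGTAAATA and 1 TGTACATA. Counted from the start of the transcript, elements 2, 4, 11 and 12 are shown for the first form, 3 and 8 for the second and 5 for the third, with the element in capitals and the bases around it. They are examples and do not stand for all 15.
NORAD element 2, chr20:36049808-36049827: ctactgTGTATATAgttgac
NORAD element 3, chr20:36049707-36049726: acatttTGTAAATAcctttt
NORAD element 4, chr20:36049506-36049525: tatctgTGTATATAgtgtac
NORAD element 5, chr20:36049497-36049516: atatagTGTACATAaaggac
NORAD element 8, chr20:36048482-36048501: acacttTGTAAATAgctttt
NORAD element 11, chr20:36047976-36047995: ctactgTGTATATAgcggac
NORAD element 12, chr20:36047673-36047692: gtgctgTGTATATAgtgtat

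In level, the 6 RNAs ran from among the most abundant genes of the table to moderate ones. Levels are CPM, the count of a gene relative to the TMM-adjusted size of its library, and averaged 2657 for MALAT1, 699 for NEAT1, 382 for NORAD, 343 for TUG1, 111 for KCNQ1OT1 and 75.7 for OIP5-AS1 over 24 libraries. Ranked by CPM among long noncoding RNAs they stood at place 2, 5, 12, 14, 54 and 80. Per kb of exon the order changed, to 254.6 CPM for MALAT1, 70.6 for NORAD, 33.8 for TUG1, 30.7 for NEAT1, 3.39 for OIP5-AS1 and 1.19 for KCNQ1OT1. By that scale KCNQ1OT1 stood at place 2865 and OIP5-AS1 at place 1170 among long noncoding RNAs. On it abundance holds for the other 4 but not for these. The exon bases join all annotated transcripts, 22370 for OIP5-AS1, whose longest transcript has 8881 bases, which lowers its value per kb. Neighbours in the per-kb order whose libraries overlapped were TUG1, at 28.2 to 38.0 CPM per kb, and NEAT1, at 18.6 to 48.6, and those 2 do not differ beyond their spread. The smallest count of any of the 6 RNAs in any library was 676 (OIP5-AS1), and the spread between libraries, not counting, limited precision. Together they took 0.273% to 0.64% of counts.

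Library totals ran from 8106036 to 15820806 counts. All 8 listed glucocorticoid targets rose at 3 h in the mean of the lines, with a median log2 change of 2.43, and FKBP5, an inhibitor of receptor signalling and a standard target, went from 19.4 to 33.8 CPM at 0 h to 170 to 298 CPM at 3 h. The count of the receptor gene NR3C1 joins the cell's own and the introduced copy. It ranged from 334 to 1595 CPM among wt libraries, from 1118 to 6273 CPM among SoF libraries and from 1627 to 7658 CPM among Ctrl libraries. Of 10 markers of osteoblasts, 7 passed the filter, among them RUNX2 and COL1A1, while SP7, COL1A2 and IBSP had at most 8 counts in any library. Of 8 markers of other cell types, 5 passed, with KRT18 at 250 CPM and the other 4 at 0.939 to 4.22 CPM, and CD3E and ALB had at most 1 count in any library. At 3 h against 0 h in the mean of the lines 3 of the 7 osteoblast markers rose and 2 fell. Of the 5 others 0 rose and 2 fell, where 40.3% of all genes were called. The part of these markers in the changes of the 6 RNAs was not tested. In a bulk sample fewer cells that make an RNA and less of it per cell cannot be told apart.

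NEAT1 had its highest mean at 1 h and its lowest at 3 h in each line. In wt it was at 635 and 642 CPM at 0 h, 835 and 768 at 1 h, 499.6 and 650.1 at 2 h, and 553 and 456 at 3 h (replicates 1 and 2). In SoF the values were 882 and 938, 1106 and 908, 745 and 628, and 682 and 488 CPM at the same times. In Ctrl they were 760.4 and 669.9, 1030.3 and 737, 660.4 and 424, and 575 and 492.7 CPM. The 6 libraries at 1 h were all above the 6 at 3 h, with 737 CPM the lowest at 1 h and 682 CPM the highest at 3 h.

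MALAT1, from the neighbouring gene, also had its highest mean at 1 h in each line, and its lowest at 3 h in wt and SoF and at 2 h in Ctrl. In wt it was at 2072 and 2085 CPM at 0 h, 2908 and 3688 at 1 h, 1845 and 2426 at 2 h, and 2244 and 1634 at 3 h. SoF libraries held 2945 and 3645, 3909.6 and 4069, 2621 and 2801, and 2724 and 2213 CPM. Ctrl libraries held 2689 and 2700.2, 3773 and 2340.2, 2397 and 1778, and 2228 and 2026 CPM. The 1 h and 3 h libraries did not overlap within any line, and did overlap between lines, and 1 Ctrl library at 1 h stood above the others of its line.

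KCNQ1OT1 was lower in wt than in the other lines at every time. In wt it was at 61.7 and 81.3 CPM at 0 h, 106 and 121 at 1 h, 52.5 and 63.4 at 2 h, and 74.1 and 61.3 at 3 h. SoF libraries held 102 and 151, 159.7 and 164, 122 and 131, and 119 and 94.6 CPM. Ctrl libraries held 102 and 187, 135 and 162, 110.4 and 97.1, and 110.5 and 84.7 CPM. The 2 wt libraries lay below all 4 others at each of the 4 times, which none of the other 5 RNAs did at more than 1 time. This was not counted over all genes, so it is not shown to be particular to KCNQ1OT1. In edgeR tests over all times, 8.02% of genes differed in SoF against wt and 4.77% in Ctrl against wt (adjusted p under 0.05).

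NORAD and TUG1 moved less. NORAD was at 341 and 367 CPM at 0 h in wt, 422 and 423 at 1 h, 341 and 333 at 2 h and 369 and 316 at 3 h. In Ctrl, where it was highest, the values were 433 and 484, 529 and 435, 370.1 and 369, and 348 and 366 CPM, and in SoF all 8 lay between 334 and 451 CPM. TUG1 stayed between 286 and 386 CPM in all 24 libraries. Its 6 libraries at 1 h, 369.9 to 386 CPM, were all above the 6 at 3 h, 293 to 344 CPM, and the same was true of NORAD, at 402 to 529 against 316 to 369 CPM.

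OIP5-AS1 had no common course in time. Its 24 values lay between 56.6 and 87.2 CPM, with means of 70.8 ± 10.7 CPM at 0 h and 78.5 ± 8.01 CPM at 3 h (SD, n = 6). The lowest was a wt library at 0 h and the highest a wt library at 3 h. Over the 6 RNAs and 3 lines, 1 h had the highest mean in 17 of 18 cases, all but OIP5-AS1 in SoF, and 1 h and 3 h did not overlap in 15 of 18, all but OIP5-AS1. Neither count was made for all genes, nor were the overlaps given above for single RNAs. They are not shown to be particular to these RNAs. For 3 h against 1 h in the mean of the lines, 50.6% of all genes and 43.9% of long noncoding RNAs had an adjusted p under 0.05 (edgeR). Of the latter, 1810 fell and 511 rose.

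**Figure D1:**
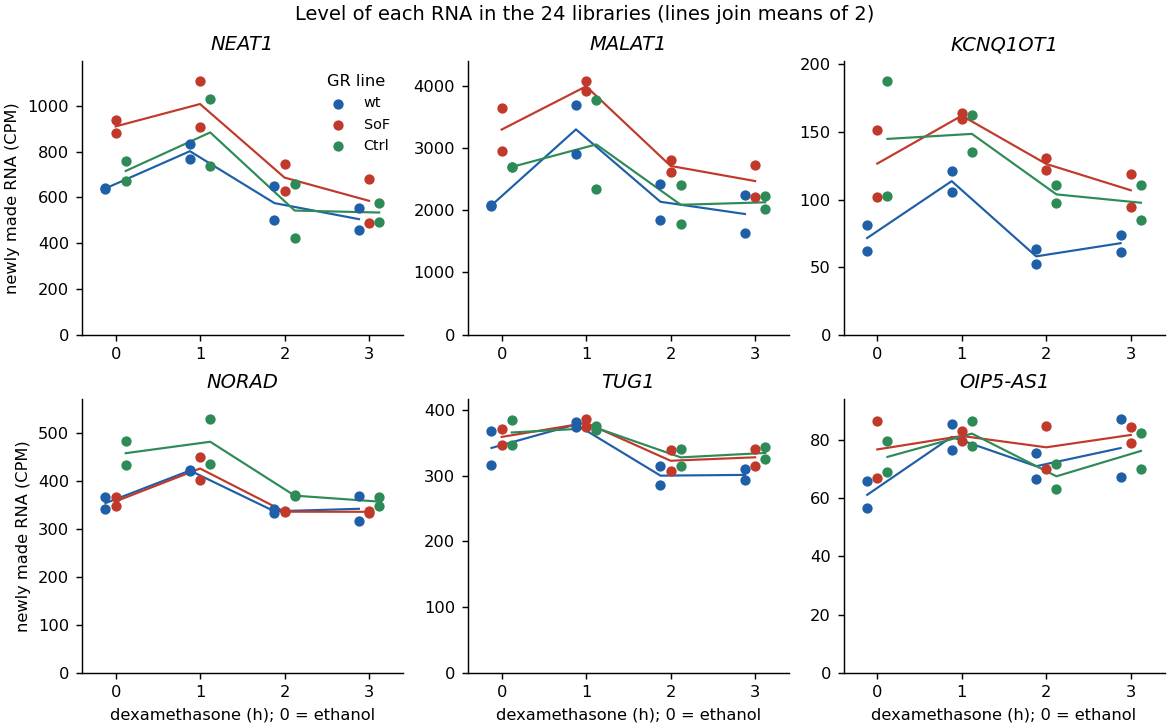
CPM (TMM-scaled counts, y axis from 0) of each RNA against hours of dexamethasone, with 0 for ethanol; points are libraries, coloured by line, and lines join the means of 2. NEAT1, MALAT1, KCNQ1OT1, NORAD and TUG1 are higher at 1 h than at 3 h within each line, and the wt points of KCNQ1OT1 lie below the others at every time.

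Each time was tested against 0 h of the same line, as the study did, to ask which genes respond to dexamethasone. At 1 h none of the 6 RNAs was called (adjusted p under 0.05, edgeR) in any line, where the share of genes called was 0.156% for wt, 0.165% for SoF and 0.0465% for Ctrl. At an unadjusted p under 0.05 there were 3 in wt and 0 in each mutant, and DESeq2 called 0 in each line. The largest value was KCNQ1OT1 in wt, a log2 change of 0.67 (SE 0.23, adjusted p = 0.334), and MALAT1 there was 0.67 (SE 0.22, adjusted p = 0.313). At 2 h none was called either, with 4.6% of genes called in wt, 5.68% in SoF and 7.95% for Ctrl, and 0, 0 and 2 at an unadjusted p under 0.05, and 0 by DESeq2. At 3 h NEAT1 fell in SoF cells, by 0.64 on the log2 scale (SE 0.21, adjusted p = 0.0356). This call was lost without SoF 0 h replicate 1, SoF 0 h replicate 2 or SoF 3 h replicate 2, with log2 changes of -0.67, -0.59 and -0.42. None was called at 3 h in wt or Ctrl, with 1 and 2 at an unadjusted p under 0.05 and 0 and 1 (NORAD) by DESeq2, where 10.7% of genes were called for wt, 19.3% for SoF and 14.2% for Ctrl.

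The mean of the lines, which weighs the 3 lines equally and uses all 6 libraries of a time, gave NEAT1 as the 1 RNA called at 3 h, with a log2 change of -0.47 (SE 0.12, adjusted p = 0.0038). It kept its call without any 1 of the 12 libraries, at -0.55 to -0.39. The values of the others at 3 h were -0.29 (MALAT1, adjusted p = 0.0714), -0.30 (KCNQ1OT1, 0.0791), -0.17 (NORAD, 0.0849), -0.15 (TUG1, 0.113) and 0.16 (OIP5-AS1, 0.184). Of all genes 40.3% were called in this comparison and of long noncoding RNAs 33.2%, with 458 rising and 1299 falling and a median of -0.23, beside a median of -0.23 for the 6. The count of 1 depends on the setting, since DESeq2 called 3 (NEAT1, MALAT1 and NORAD), where it called 31.6% of all genes, and edgeR without the low-count filter also 3 (NEAT1, MALAT1 and KCNQ1OT1), so nothing is read from it against the background share. At 2 h NEAT1 stood at -0.32 (SE 0.12, adjusted p = 0.0502), and none was called by edgeR (2 at an unadjusted p under 0.05, 3 by DESeq2) where 28.8% of genes were. NEAT1 was called at 2 h under all 5 other settings run (no low-count filter, RLE size factors, total counts alone, DESeq2 and a replicate block), at -0.38 to -0.32 with adjusted p from 0.00221 to 0.0371, the block giving 0.0217. At 1 h all 6 values were above 0, from 0.09 for TUG1 to 0.37 for MALAT1 (SE 0.12, adjusted p = 0.175), and none was called by edgeR (5 at an unadjusted p under 0.05, 0 by DESeq2) where 1.28% of genes were.

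Because the values peaked at 1 h, 3 h was also set against 1 h, a comparison chosen after the values were seen. In the mean of the lines 5 of the 6 fell, where 50.6% of all genes and 43.9% of long noncoding RNAs were called. NEAT1 fell by 0.73 on the log2 scale (SE 0.12, adjusted p = 4.06e-05), MALAT1 by 0.66 (SE 0.12, adjusted p = 0.000159) and KCNQ1OT1 by 0.65 (SE 0.13, adjusted p = 0.000322). NORAD fell by 0.36 (SE 0.08, adjusted p = 0.000464) and TUG1 by 0.23 (SE 0.07, adjusted p = 0.0112), while OIP5-AS1 stood at -0.06 (SE 0.09, adjusted p = 0.628). TUG1 lost its call without SoF 3 h replicate 1 (log2 change -0.20, adjusted p = 0.0513, in a range of 0.0203 to 0.0513 over the 12 libraries left out). The median of the 6, -0.51, stood beside a median of -0.32 over 5287 long noncoding RNAs and -0.04 over all genes. Within lines, NEAT1, MALAT1 and KCNQ1OT1 fell in wt, where 16% of genes were called. Those and NORAD fell in SoF, where 32.6% were called, and NEAT1 and NORAD in Ctrl, where 16.9% were. These counts rested on single libraries. In wt 0 were called without replicate 2 of 1 h or of 3 h and 1 without replicate 1 of either. In SoF 0 were called without 1 h replicate 1 or 3 h replicate 2, 1 without 1 h replicate 2 and 2 without 3 h replicate 1. In Ctrl 0 were called without 1 h replicate 1 or either 3 h library.

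**Figure D2:**
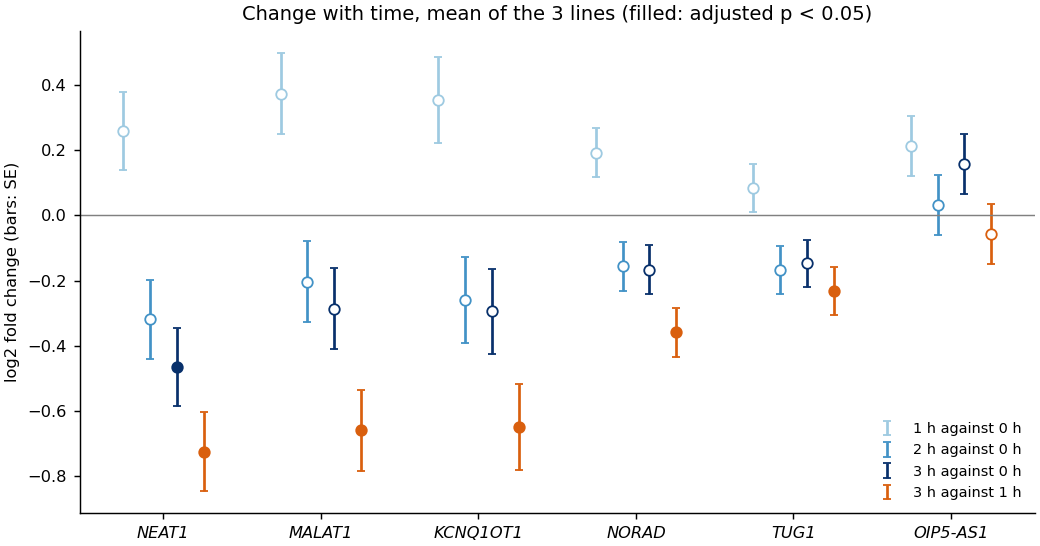
Log2 fold change (y axis) of each RNA in the mean of the 3 lines, for each time against 0 h and for 3 h against 1 h; bars are SE and filled points have an adjusted p under 0.05. Values at 1 h lie above 0, and those of 3 h against 1 h lie furthest below 0, from -0.73 for NEAT1 to -0.06 for OIP5-AS1.

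Other measures moved with time in the same libraries. The summed level of 14 immediate-early genes, which serum and handling induce within minutes, was 8988 to 13903 CPM at 0 h, 8291 to 13742 at 1 h and 2467 to 3131 at 3 h, and all 14 fell at 3 h against 0 h with a median of -2.04. NR3C1 itself stood at -1.06 at 3 h against 0 h and -2.13 at 3 h against 1 h. Their part in the changes of the 6 RNAs was not tested. How long the ethanol dishes were kept is not stated, so 0 h is not known to match the handling of any other time, and all comparisons with 0 h share its libraries.

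Whether the 3 h response differed between lines was tested as an interaction. None of the 6 RNAs was called in SoF against wt, Ctrl against wt or SoF against Ctrl (edgeR, 0 at an unadjusted p under 0.05 and 0 by DESeq2 in each). Of all genes 0% were called in SoF against wt (558 at an unadjusted p under 0.05 and 0 by DESeq2), 0% in Ctrl against wt (845, and 1 by DESeq2) and 0.0127% in SoF against Ctrl. The interval of the difference, 2 SE either way, ran from -1.13 to 0.16 for KCNQ1OT1 in Ctrl against wt. For NEAT1 it ran from -0.89 to 0.29 in SoF and from -0.67 to 0.51 in Ctrl against wt, so the intervals are wider than the NEAT1 change itself.

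The lines were then compared over all times, 8 libraries each, in a fit without time, as the study compared each mutant with wt. KCNQ1OT1 was the 1 RNA of the 6 called. It was higher in SoF than in wt, at 130 ± 26.0 against 77.7 ± 24.1 CPM (SD, n = 8), a log2 difference of 0.75 (SE 0.18, adjusted p = 0.013). It was also higher in Ctrl, at 124 ± 35.2 CPM, by 0.67 (SE 0.18, adjusted p = 0.0319), and the 2 mutants stood 0.08 apart (SE 0.18, adjusted p = 0.899). The SoF difference was called without any 1 of the 16 libraries. The Ctrl difference was lost without any 1 of 8 of them (Ctrl 0 h replicate 2, both Ctrl 1 h libraries, wt 0 h replicate 1, both wt 2 h and both wt 3 h libraries), at 0.56 to 0.80 over all 16. Both comparisons share the wt libraries. At 0 h alone, before any dexamethasone, the differences were 0.82 (SoF, adjusted p = 0.109) and 1.01 (Ctrl, adjusted p = 0.0576).

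The other 5 RNAs were not called in this fit. MALAT1 stood at 0.41 in SoF against wt (SE 0.17, adjusted p = 0.131) and NEAT1 at 0.35 (SE 0.17, adjusted p = 0.211), while NORAD stood at 0.20 in Ctrl against wt (SE 0.10, adjusted p = 0.258). TUG1 and OIP5-AS1 were at 0.05 to 0.14 in both mutants. Of all genes 8.02% were called in SoF against wt, 4.77% in Ctrl against wt and 3.61% in SoF against Ctrl, where none of the 6 was (0 at an unadjusted p under 0.05, 0 by DESeq2).

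A term for time narrowed the errors. With it, SoF was above wt in NEAT1 by 0.33 (SE 0.10, adjusted p = 0.0113), in MALAT1 by 0.41 (SE 0.10, adjusted p = 0.00494) and in KCNQ1OT1 by 0.78 (SE 0.12, adjusted p = 4.91e-05), where 29% of genes were called. Ctrl was above wt in KCNQ1OT1 by 0.69 (SE 0.12, adjusted p = 0.000228) and in NORAD by 0.19 (SE 0.06, adjusted p = 0.024), where 18.8% of genes were called. In SoF against Ctrl, with 13.3% of genes called, MALAT1 was higher by 0.32 (adjusted p = 0.0413) and NORAD stood at -0.19 (adjusted p = 0.0365). With the same term, NR3C1 differed between the same lines, by 1.82 in SoF and 2.19 in Ctrl against wt. Each line is 1 pool, so receptor level, receptor variant and pool cannot be told apart.

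**Figure D3:**
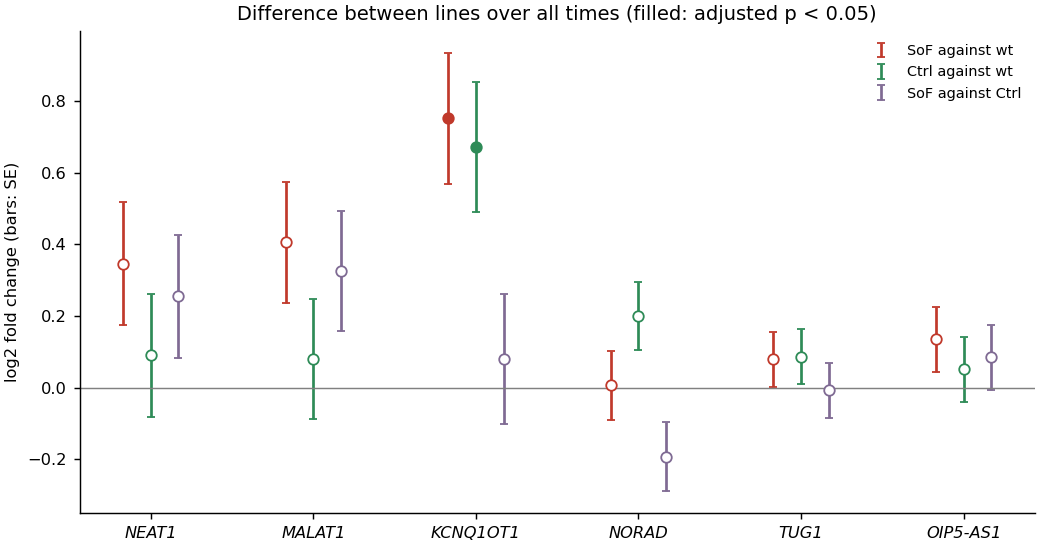
Log2 difference between lines over all times (y axis) for each RNA, in the fit without a time term; bars are SE and filled points have an adjusted p under 0.05. KCNQ1OT1 is above wt in SoF (0.75) and in Ctrl (0.67), and no other point is filled.

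Of 13 listed imprinted genes of chromosome 11 and their neighbours, 9 passed the filter. The list covers KCNQ1OT1's domain and also H19 and IGF2, which belong to the separate imprinted domain beside it. In the fit without time, the smallest adjusted p of the 9 in SoF against wt was 0.0788 (TSSC4, log2 difference -0.37), with CDKN1C, a cell cycle inhibitor that KCNQ1OT1 silences, at 0.01 (SE 0.22). In Ctrl against wt IGF2, a growth factor, was higher by 0.89 (SE 0.24, adjusted p = 0.030). With the time term more were called, beside 29% of all genes in SoF against wt and 18.8% in Ctrl against wt. In SoF against wt 2 of the 9 were lower, TSSC4 (-0.37, adjusted p = 0.00849) and PHLDA2 (-0.55, adjusted p = 0.0133). In Ctrl against wt IGF2 (0.84), PHLDA2 (0.51) and CARS1 (0.29) were higher and TSSC4 (-0.30) lower, and PHLDA2 stood at opposite signs in the 2 mutants, 1.06 lower in SoF than in Ctrl (adjusted p = 4.05e-05). KCNQ1, the gene opposite, had 75 counts in all libraries and at most 7 in any, so it was not tested. At 3 h against 0 h in the mean of the lines, OSBPL5 (0.95) and IGF2 (0.63) rose and CARS1, a transfer RNA synthetase, fell (-0.27). There CDKN1C stood at 0.30 (SE 0.16, adjusted p = 0.145, edgeR). At 3 h against 1 h CDKN1C rose by 0.64 (SE 0.17, adjusted p = 0.00356), where 50.6% of all genes were called. The count of KCNQ1 was 0.248% of the 30278 counts of KCNQ1OT1.

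Genes of the proteins that work with these RNAs moved in both directions. Of 19 paraspeckle proteins, 20 identifiers were tested because MATR3 has 2. At 3 h against 0 h in the mean of the lines 2 rose, 6 fell and 12 were not called, with a median of -0.14, beside 40.3% of all genes called and a median of -0.03. TAF15, an RNA-binding protein, fell by 0.46 (SE 0.12), both MATR3 identifiers by 0.29 and 0.33 and HNRNPH3 by 0.27, while DAZAP1 rose by 0.34 and SMARCA4, a chromatin remodeller, by 0.28. SFPQ, an essential paraspeckle protein, fell by 0.22 (adjusted p = 0.0369), and NONO, its partner, stood at -0.08. In the line comparisons without a time term DAZAP1 alone was called, higher in SoF (0.48) and Ctrl (0.54) than in wt. With the term 3 were higher in SoF and 2 in Ctrl, DAZAP1 in both, where 29% and 18.8% of all genes were called.

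Of 18 nuclear speckle proteins 1 rose, 7 fell and 10 were not called at 3 h, a share near the 40.3% of all genes, with a median of -0.12. BCLAF1 fell by 0.54 (SE 0.10), and the splicing factors SRSF4, SRSF5 and SRSF6 by 0.32, 0.29 and 0.28, while THRAP3 rose by 0.25. Between lines, in the fit without time, SRSF1 was higher in SoF than in wt (0.26), and ACIN1 (0.28) and SRSF6 (0.34) in Ctrl. SRSF7 and ACIN1 were lower in SoF than in Ctrl. With the time term 6 were higher and 2 lower in SoF than in wt, where 29% of all genes were called. In Ctrl 3 were higher than in wt, where 18.8% of all genes were called.

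RNase P and RNase Z cut the ends of MALAT1 and NEAT1. Of their 12 genes 7 rose, 0 fell and 5 were not called at 3 h, beside 40.3% of all genes called, with a median of 0.37. POP1, a shared protein subunit, rose by 0.97 (SE 0.11), ELAC2, the RNase Z enzyme, by 0.50 (SE 0.08), POP5 by 0.60 and POP7 by 0.53. In the fit without time RPP14 was lower in Ctrl than in wt (-0.33) and higher in SoF than in Ctrl (0.35). With the time term 3 of the 12 were lower in each mutant than in wt, beside 29% of all genes called for SoF and 18.8% for Ctrl. Of 5 proteins that bind NORAD, PUM2 stood at -0.03 (SE 0.09) at 3 h and the 5 lay between -0.19 and 0.07 without a call, and TOP1 was higher in SoF (0.32) and Ctrl (0.35) than in wt.

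Another 20 listed long noncoding RNAs were set beside the 6, and 18 passed the filter. At 3 h against 0 h 9 fell, 0 rose and 9 were not called, where 33.2% of long noncoding RNAs and 40.3% of all genes were called, with a median of -0.30. CYTOR fell by 0.84 (SE 0.15), CHASERR by 0.51, DANCR by 0.39 and DLEU2 by 0.56. At 3 h against 1 h 10 fell and 2 rose, where 43.9% of long noncoding RNAs and 50.6% of all genes were called, with a median of -0.54, against -0.51 for the 6. In the fit without time PVT1 was the 1 called between lines, higher in SoF than in wt by 0.53 (adjusted p = 0.0286). With the time term 7 were higher and 1 lower in SoF than in wt, where 29% of all genes and 26.9% of long noncoding RNAs were called. In Ctrl 6 were higher and 1 lower than in wt, where these shares were 18.8% and 17.6%.

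The coding genes beside each RNA were examined because neighbouring genes can share their regulation. FRMD8, 9.25 kb before NEAT1, rose by 1.06 at 3 h against 1 h (SE 0.13) in the mean of the lines, while NEAT1 fell. SLC25A45, on the far side of FRMD8, fell by 0.71 (SE 0.13). MORC2, which starts beside TUG1 on the other strand, rose by 0.27 (SE 0.09, adjusted p = 0.0119) where TUG1 fell by 0.23. EPB41L1, 40.5 kb from NORAD, rose by 0.46 (SE 0.10). Between a mutant and wt, in the fit without time, these 4 neighbours had adjusted p-values of 0.137 or above.

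**Figure D4:**
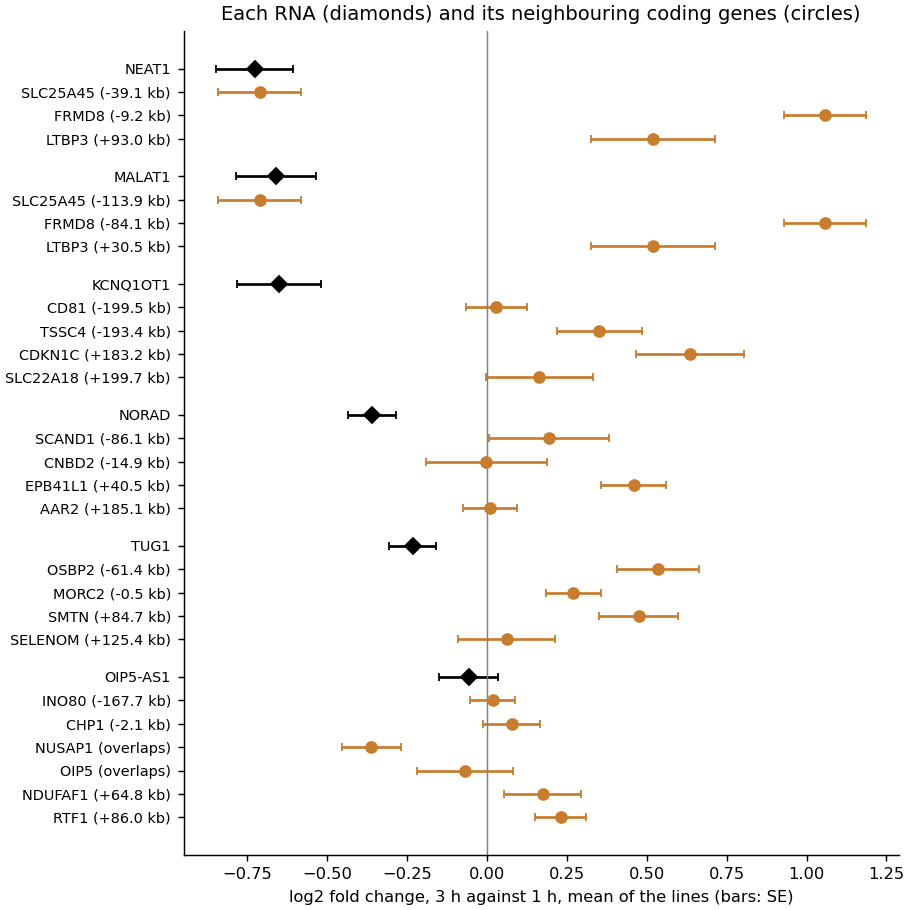
Log2 fold change at 3 h against 1 h in the mean of the lines (x axis, bars SE) for each RNA (diamonds) and the neighbouring coding genes reported here (circles), with the distance in kb in the label, minus toward lower coordinates. FRMD8 (1.06) lies to the right while NEAT1 (-0.73) and MALAT1 (-0.66) lie to the left.

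Overlaps limit what some counts mean. OIP5-AS1 overlaps OIP5 on the other strand, with 1445 counts against 21327, and NUSAP1 and a readthrough gene on its own strand, with 24819 and 23704 counts. That strand was used in counting is known from a table title alone, so OIP5-AS1 is uncertain, and how reads over more than 1 gene were treated is not given in the sources used here. NUSAP1, a spindle protein, fell at 3 h against 1 h by 0.36 (SE 0.09), where OIP5-AS1 stood at -0.06. An antisense gene within MALAT1 (ENSG00000270117) had 195 counts, 0.0263% of those of MALAT1. The short and long forms of NEAT1 share exon sequence and were not separated by these counts.

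Across the 24 libraries NEAT1 and MALAT1 varied together, with a Pearson r of 0.90 and a Spearman rho of 0.90 of log2 CPM. The libraries share times, lines and scaling, so this is a description. The next pairs were KCNQ1OT1 with TUG1 (r = 0.75) and NORAD with TUG1 (0.73), and the lowest was NORAD with OIP5-AS1 (0.33). For deviations from the group means the order was another, with KCNQ1OT1 and OIP5-AS1 at 0.76, NEAT1 and MALAT1 at 0.75, MALAT1 and OIP5-AS1 at 0.74, TUG1 and OIP5-AS1 at 0.59, KCNQ1OT1 and TUG1 at 0.58 and NORAD and TUG1 at 0.25. Each RNA was also ranked against the tested genes, with the RNAs followed here left out. NEAT1 and MALAT1, at 0.90 with each other, would otherwise be among the genes named for one another. The most like NEAT1 were then NBEAP1 (r = 0.91), MDM2, which restrains p53 (0.89), and LINC00958 (0.89). Most like MALAT1 were ENSG00000256325 (0.91), CCDC144NL (0.90) and MITF (0.89), and most like KCNQ1OT1 were LSP1P4 (0.94) and LINC00641 (0.94). NORAD was most like WAC-AS1 (0.89) and OCIAD1 (0.89), TUG1 most like FRA10AC1 (0.93) and OIP5-AS1 most like ZNF891 (0.88).

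**Figure D5:**
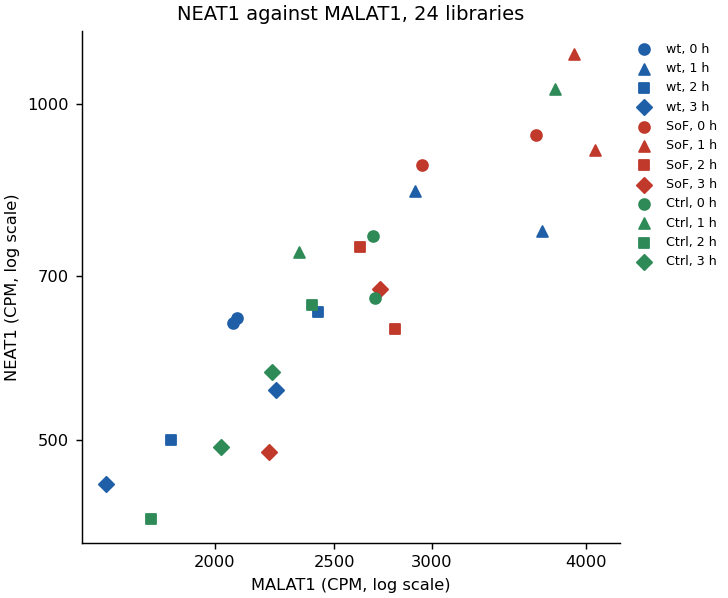
NEAT1 against MALAT1 in CPM, both axes on a log scale, with 1 point per library, coloured by line and shaped by time. The 24 points run along 1 diagonal (r = 0.90). The highest NEAT1 value is a 1 h library of SoF (1106 CPM) and the lowest a 2 h library of Ctrl (424 CPM), and points of different times mix along the diagonal.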

How the data were processed

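Newly made RNA was sequenced from 24 libraries of 3 U2OS lines, 2 per line and time. The authors processed reads with UMI-tools 1.1.2, Trim Galore 0.6.6 and STAR 2.7.3a on hg38, removed duplicate molecules, and ran featureCounts on exons of GENCODE release 39. Their deposited values are these raw read counts, not normalized. GENCODE release 44 gave symbols and hg38 positions for 61369 of 61533 identifiers, compared without version numbers.

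In R 4.3.3, counts were tested by the quasi-likelihood F test of edgeR 4.0.16 after TMM scaling and filterByExpr (minimum count 10, minimum total 15), and p-values were adjusted over all tested genes by Benjamini and Hochberg. The fit over 12 groups gave time and interaction contrasts. A fit on line alone (21122 genes) compared the lines. SE is the absolute log2 change over the square root of F. DESeq2 1.42.0 was the other tool. CPM for single libraries used TMM factors, and log2 CPM for correlations a prior count of 2. The fits were tested on simulated data, with a single spread shared by all genes and planted changes of a single size. That size was larger than most changes reported here for these RNAs, and smaller changes were not simulated. The labels do not say that libraries came from separate cultures, so p-values measure the spread between libraries. According to the paper, biotinylation and pulldown were carried out in pairs of replicates. If the 2 libraries of a group shared a pulldown, variation between pulldowns is not in that spread. Members and gene lists (paraspeckle, nuclear speckle, RNase P and RNase Z, NORAD-binding, imprinted domain, other long noncoding RNAs, immediate-early, glucocorticoid targets, markers) were chosen with earlier results of these data known. From a list, genes called at 3 h in the mean of the lines or between lines were named, at most the 4 with the smallest p in each direction, and for neighbours the 2 nearest tested coding genes a side. A few genes are not reported here. SFPQ, NONO, CDKN1C and PUM2 are named outside that rule, for their roles, and TSSC4 and PHLDA2 after their values were seen. Alternatives were other scalings, no filter, DESeq2, only the line compared, a time term, a replicate block and leaving out each library.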

Additional observations from a re-analysis of the deposited data

Results flagged for a closer look

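MALAT1 in Ctrl at 1 h, replicate 1, was at 3773 CPM, apart from the other 7 Ctrl libraries, the next of which was at 2700.2 CPM. Its gap to the next was 0.538 of the range of the 8 libraries, above Dixon's 95% critical value of 0.526. The 8 libraries span 4 times. Of 42 groups examined this was the 1 that stood out, and chance would give about 1 in 20.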

How the results depend on the processing

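Of 786 values of the 6 RNAs under other settings, 749 kept direction and side of the threshold, 10 lost and 27 gained a call, and none that was called changed sign. With single libraries left out the numbers were 951, 41 and 16 of 1008. The number of the 6 RNAs called moved by over 1.5 times as follows, and the cause was not tested. Without the low-count filter it was 1 at 1 h, 2 at 2 h and 3 at 3 h in the mean of the lines, 2 in wt at 1 h and 1 in Ctrl at 3 h. DESeq2 called 3 at 2 h and 3 at 3 h in the mean of the lines and 1 in Ctrl at 3 h. RLE size factors gave 1 at 2 h in the mean of the lines and 2 at 3 h against 1 h in SoF, total counts alone 3 at 2 h, and a fit on Ctrl alone 1 at 3 h against 1 h. With a time term 3 were called in SoF against wt, 2 in Ctrl against wt and 2 in SoF against Ctrl, and with 0 h alone 0 in SoF and 0 in Ctrl against wt. Smaller moves were at 3 h against 1 h, with 4 in wt by DESeq2 (TUG1 gained), 3 in SoF by total counts alone (KCNQ1OT1 lost), a fit on SoF alone or no filter (NORAD lost in both), and, without the filter, 4 in the mean of the lines (TUG1 lost) and 3 in Ctrl (KCNQ1OT1 and MALAT1 gained, NORAD lost).

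Leaving out 1 library at a time gave 0 to 1 called at 1 h, 0 to 1 at 2 h and 1 to 3 at 3 h in the mean of the lines, 0 to 1 in Ctrl at 2 h and at 3 h, and 0 to 1 in SoF at 3 h. At 3 h against 1 h it gave 0 to 1 in wt, 0 to 2 in SoF, 0 to 3 in Ctrl and 4 to 5 in the mean of the lines. It gave 1 to 2 in SoF against wt and 0 to 1 in Ctrl against wt. The calls gained in the mean of the lines were KCNQ1OT1 at 1 h without Ctrl 0 h replicate 2 (log2 change 0.51), NEAT1 at 2 h without Ctrl 0 h replicate 2, Ctrl 2 h replicate 1 or wt 2 h replicate 2 (-0.36, -0.43 and -0.40), KCNQ1OT1 at 2 h without replicate 1 of Ctrl or SoF 0 h (-0.39 and -0.34), TUG1 at 2 h without wt 0 h replicate 1 (-0.22), MALAT1 at 3 h without SoF 0 h replicate 1 or wt 3 h replicate 1 (-0.33 and -0.36), and KCNQ1OT1 at 3 h without replicate 1 of Ctrl, SoF or wt 0 h (-0.41, -0.37 and -0.36). In Ctrl, KCNQ1OT1 was gained without Ctrl 0 h replicate 1 at 2 h (-0.86) and 3 h (-0.93), and MALAT1 in SoF against wt without wt 1 h replicate 2 (0.53). A lone library left in a group was assumed to vary like the others.

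Samples with the same replicate number deviated together in the 3 pairs of groups at 0 h (correlations of 0.39 to 0.57) but not throughout (-0.22 to 0.57 over 66 pairs, 21 above 0.1), so the numbers do not pair the samples. A replicate block gave 1 RNA called at 2 h in the mean of the lines (NEAT1, adjusted p = 0.0217, against 0.00221 to 0.0371 over its other settings) and changed no other count.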
